A study of Mus musculus with 6 samples.

Results

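The enzymes and transporters that carry glucose through glycolysis, glycogen and the pentose phosphate path were followed in whole interscapular brown fat of newborn mice by bulk RNA-seq. They are 36 genes of the 19241 in the deposited expression table, matched by symbol from a list that covers glucose and lactate transport and the enzymes of the 3 pathways. All 36 were found, and 35 of them reached the mean of 0.5 FPKM (fragments per kilobase of transcript, scaled to library size) required for testing. The WT group holds 3 libraries from newborn mice with a floxed Fstl1 gene. The KO group holds 3 libraries from newborn mice labelled Myf5-Fstl1 KO, in which Fstl1, the gene of a secreted glycoprotein, is deleted in cells of the Myf5 lineage. That lineage gives rise to skeletal muscle as well as to much of the interscapular brown fat, and cells outside it keep the gene. The labels do not say whether a library is 1 animal or a pool. The p-values set a difference against the spread between these libraries, which may not be the spread between single animals. Values for a group are listed throughout in the order of replicates 1, 2 and 3.

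Glycolysis splits glucose into pyruvate, and its pace is set mainly at hexokinase and phosphofructokinase. The bifunctional PFKFB enzymes make and remove the sugar phosphate that activates phosphofructokinase. Brown fat takes up much glucose when it produces heat, uses it for lipid and glycerol synthesis as well as for oxidation, and stores glycogen around birth, while the pentose phosphate path supplies NADPH for fatty acid synthesis.

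Fstl1 lay at 7.93 to 13.1 FPKM in the KO libraries and at 54.4 to 130 FPKM in the WT libraries, and the KO mean was 12.4% of the WT mean. Ucp1, the gene of the heat-producing uncoupling protein, was at 4366 to 6255 FPKM in WT and 1695 to 3592 FPKM in KO, without overlap (limma, adjusted p 0.0804), and the adipocyte gene Adipoq at 889 to 1079 and 1072 to 1216 FPKM. Ddx3y, on the Y chromosome, was at 59.5 to 60.8 FPKM in every KO library and at no more than 0.23 FPKM in WT, whereas Xist was at 44.8 to 85.5 FPKM in WT and at no more than 0.92 FPKM in KO. The labels give no sex. Sex thus coincided with genotype in these libraries, and the contributions of sex and of genotype to every difference below cannot be told apart. The summed level of 22 skeletal muscle markers was 433 FPKM in KO replicate 1 and 1657 to 2426 FPKM in the other 5 libraries. The summed level of 11 erythroid genes was 14405 FPKM in WT replicate 3 and 3076 to 5075 FPKM elsewhere. In a bulk sample, fewer cells of a type and less RNA per cell cannot be told apart. Depth is not stated. From the steps between low values it was estimated at 13900000 to 15000000 reads per library.

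Pfkfb3, which encodes the PFKFB isoform with the strongest bias towards making the activator of phosphofructokinase, was the only member that passed the threshold, and it fell to 30.5% of its WT mean in KO. The count of 1 in 35 (2.86%) stands beside 2.21% of all 13331 genes tested (limma, adjusted p under 0.05; 1.01% lower and 1.21% higher in KO). Below that threshold many members lay lower in KO by a modest amount. The log2 fold change, KO minus WT on the log2(FPKM + 1) scale, was below 0 in 27 of the 35 (77.1%), against 48.4% of all genes tested. The median was −0.28 for the members and 0.01 for all genes. At an unadjusted p under 0.05 there were 12 members (34.3%), against 19.2% of all genes. Of these, 11 (31.4%) were lower in KO, against 8.6% of all genes, and 1 was higher, against 10.6%. The 3 KO values lay entirely outside the range of the 3 WT values in 10 members (28.6%), against 24.9% of all genes. In 9 of these KO was lower (25.7%, against 11.4% of all genes) and in 1, Gyg, it was higher (13.6% of all genes). The members are not independent of each other, and these shares are a description.

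The libraries contributed unevenly. WT replicate 3 held the highest value of 15 of the 36 members and WT replicate 2 that of 13, while WT replicate 1 held 3. Of all tested genes, 18.0% were highest in WT replicate 3, 17.7% in WT replicate 2 and 16.8% in WT replicate 1. KO replicate 2 held the lowest value of 17 members, for which no share over all genes was counted. The summed level of all members was 7947, 9721 and 11750 FPKM in the WT libraries and 7910, 6955 and 8272 FPKM in the KO libraries, so the groups overlapped. The sum was 1.63% to 2.11% of all FPKM in the WT libraries and 1.33% to 1.64% in the KO libraries. Without WT replicate 1, 19 members had an unadjusted p under 0.05 and 2 passed the threshold, and without WT replicate 3 the number that passed was 0.

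**Figure D1:**
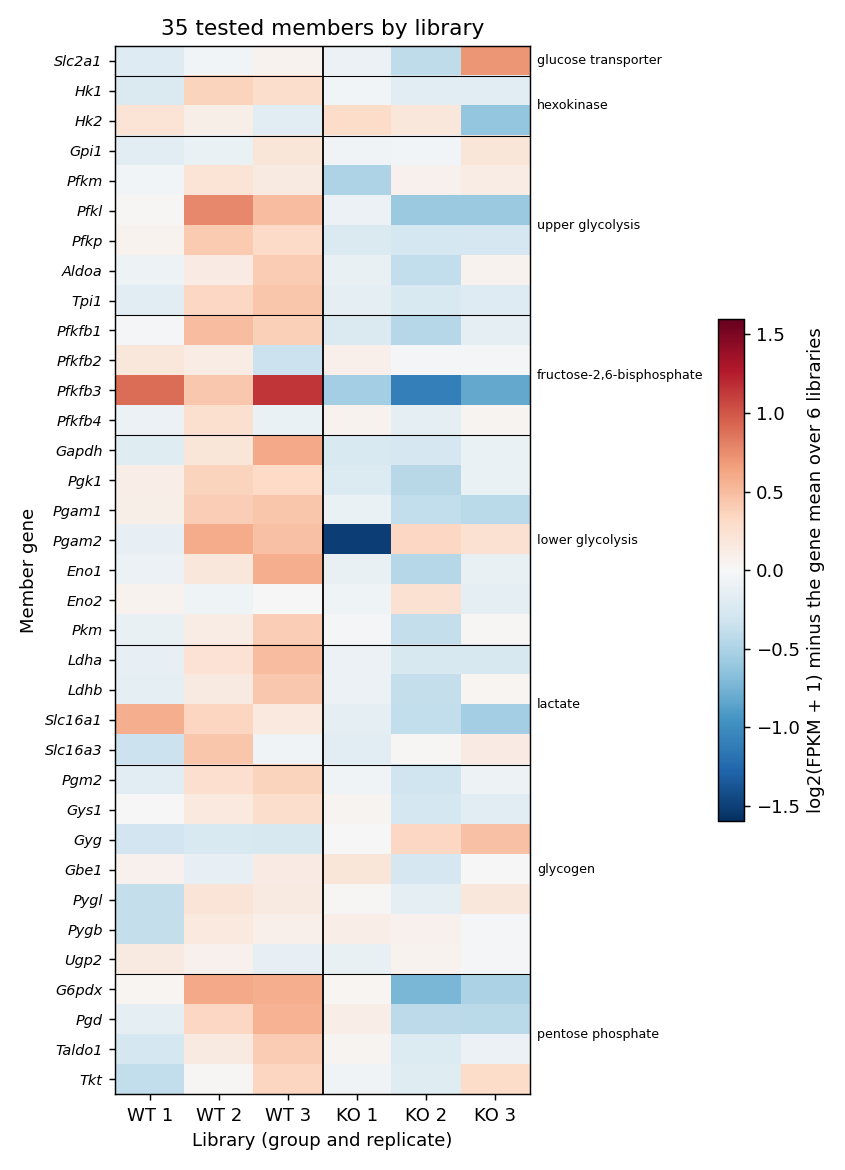
Each row is 1 of the 35 tested members, grouped by role, and each column 1 library; colour gives log2(FPKM + 1) minus the gene's mean over the 6 libraries. WT replicates 2 and 3 are above the mean for most glycolytic genes, Pfkfb3 is high in all 3 WT libraries, and Pgam2 is low in KO replicate 1 alone.

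**Figure D2:**
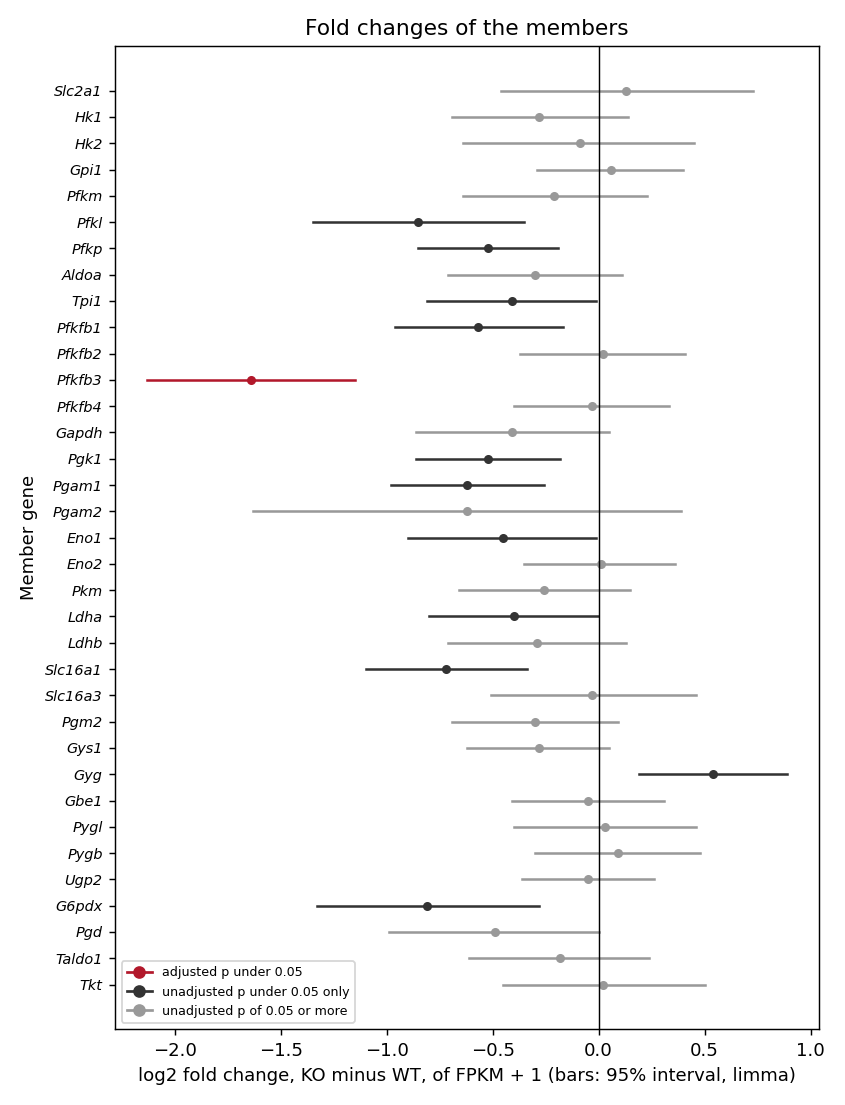
Points give the log2 fold change of FPKM + 1, KO minus WT, and bars its 95% interval from limma, for each tested member. Pfkfb3 at −1.64 stands furthest from 0, and Gyg at 0.54 is the only member with an interval wholly above 0.

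Among the PFKFB genes, the fall of Pfkfb3 (Entrez gene 170768, on chromosome 2) was the largest difference of any member. The WT libraries held 51.5, 37.0 and 61.3 FPKM of Pfkfb3, and the KO libraries 18.4, 12.2 and 15.0 FPKM. Every KO library was below every WT library, with a wide gap between the groups. The means were 49.9 ± 12.2 and 15.2 ± 3.08 FPKM (SD, n = 3 each), which gave a log2 fold change of −1.64 (SE 0.21, limma, adjusted p 0.015). It stayed past the threshold in 16 of 18 alternative settings. It missed it without WT replicate 3 (log2 fold change −1.48, limma, adjusted p 0.0677) and without the filter on low values (adjusted p 0.0618).

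Pfkfb1, the isoform of liver and muscle, measured 14.8, 21.7 and 20.1 FPKM in WT against 12.7, 10.7 and 13.5 FPKM in KO. The groups did not overlap, by a narrow margin, and the log2 fold change of −0.57 (SE 0.18) did not pass (limma, adjusted p 0.13). Pfkfb2, the isoform best known from heart, measured 7.04, 6.68 and 4.58 FPKM in WT against 6.5, 5.89 and 5.97 FPKM in KO. WT replicate 3 was the lowest library and the KO libraries lay between the WT values, with a 95% interval of the log2 fold change from −0.37 to 0.41. Pfkfb4 was low in both groups, with 1.15, 1.73 and 1.12 FPKM in WT and 1.38, 1.07 and 1.35 FPKM in KO. The make-up of the 4 transcripts differed between the groups without overlap: Pfkfb3 was 69.1%, 55.2% and 70.4% of their summed FPKM in WT and 47.2%, 40.9% and 41.9% in KO. The shares of Pfkfb1, Pfkfb2 and Pfkfb4 were all higher in every KO library than in any WT one. The sum itself was 76.2 ± 10.1 FPKM in WT and 34.9 ± 4.6 FPKM in KO (SD, n = 3 each).

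The promoters below belong to members whose KO values all lay below their WT values and whose 250 bases before the start hold ACGTG, the core that hypoxia-inducible factor (HIF) binds. They are shown because HIF is a textbook activator of glycolytic genes. There were 4 such genes among the 9 members with no overlap and lower KO values, counting the most upstream start of each gene in the promoter table. In 10 of the 36 members that start lies inside the span of the RefSeq gene model, so longer models begin further upstream. Pfkfb3 is one of them, by 142 bases; its upstream window overlaps an exon of a longer model and is not shown, and the window of its other listed start is printed in its place. Sequences and starts are those of RefSeq on GRCm38.p6, the assembly also called mm10, which the submitters' processing notes name. Each runs 5′ to 3′ towards the start, and capitals mark ACGTG on either strand.
Pfkfb3 downstream start, chr2:11502091-11502340, minus strand: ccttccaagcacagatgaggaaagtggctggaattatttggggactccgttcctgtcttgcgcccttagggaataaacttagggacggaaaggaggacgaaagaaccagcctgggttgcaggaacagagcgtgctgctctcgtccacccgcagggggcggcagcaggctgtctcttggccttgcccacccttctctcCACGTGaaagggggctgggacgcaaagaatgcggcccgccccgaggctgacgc
Slc16a1, chr3:104638414-104638663, plus strand: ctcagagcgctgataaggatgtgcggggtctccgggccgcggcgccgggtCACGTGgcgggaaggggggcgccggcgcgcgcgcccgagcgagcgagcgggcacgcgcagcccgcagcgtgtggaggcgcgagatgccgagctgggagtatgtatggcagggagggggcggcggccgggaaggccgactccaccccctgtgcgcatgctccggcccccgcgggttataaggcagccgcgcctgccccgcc
Pgam1, chr19:41911621-41911870, plus strand: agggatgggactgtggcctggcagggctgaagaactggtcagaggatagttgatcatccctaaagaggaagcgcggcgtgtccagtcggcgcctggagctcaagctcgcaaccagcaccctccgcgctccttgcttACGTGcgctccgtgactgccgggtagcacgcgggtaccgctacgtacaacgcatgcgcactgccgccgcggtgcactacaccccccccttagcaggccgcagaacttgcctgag
Pgk1, chrX:106186850-106187099, plus strand: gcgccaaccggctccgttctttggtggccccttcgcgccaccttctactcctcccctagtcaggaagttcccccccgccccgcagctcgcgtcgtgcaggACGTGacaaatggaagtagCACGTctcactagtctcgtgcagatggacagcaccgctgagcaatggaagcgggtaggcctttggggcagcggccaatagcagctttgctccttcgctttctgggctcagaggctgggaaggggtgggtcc

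The run CACGTG in the downstream Pfkfb3 promoter and in Slc16a1 reads as ACGTG on both strands and is also an E-box, the site of basic helix-loop-helix factors. Of the 36 members, all found in the promoter table, 13 (36.1%) held ACGTG in the 250 bases before their most upstream listed start, against 21.6% of the 10439 tested genes with a promoter in the table and 16.5% of all 27025 genes there. Of the 13 members, Ldha, Hk2, Slc2a1, Slc16a3, Pfkm, Pgm2, Pygl, Pygb and Ugp2 had KO values that overlapped the WT values. The share with ACGTG among all genes with lower KO values and no overlap was not counted. Any link between ACGTG and lower KO values was not tested. CACGTG was in 8.33% of members and 8.41% of tested genes. The GC box GGGCGG was in 61.1% of members and 58.8% of tested genes. All motifs were searched on both strands, and the median GC content of the windows was 59.4% for members and 59.6% for tested genes. A match is a string of letters and not a measured binding site.

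Glucose entry was described by the transporter Slc2a1 and the hexokinases, and no member of this step passed the threshold. Slc2a1, the gene of the basal transporter GLUT1, measured 5.92, 6.75 and 7.35 FPKM in WT against 6.5, 5.03 and 12.1 FPKM in KO. KO replicate 3 was the highest library and KO replicate 2 the lowest, so the groups overlapped fully (log2 fold change 0.13, limma, adjusted p 0.83). Hk2, the insulin-regulated hexokinase of fat and muscle, measured 45.6, 41.8 and 34.8 FPKM in WT against 48.1, 44.6 and 25.2 FPKM in KO. It too was set apart by KO replicate 3, here the lowest library, and the 95% interval of its log2 fold change ran from −0.64 to 0.45. Hk1, the widely expressed hexokinase, measured 5.93, 9.47 and 8.92 FPKM in WT against 6.89, 6.18 and 6.17 FPKM in KO, with WT replicate 1 the lowest library. Hk2 made up 82.2% ± 4.88 of hexokinase FPKM in WT and 83.9% ± 4.45 in KO (SD, n = 3 each).

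In upper glycolysis, the phosphofructokinase isoforms Pfkl and Pfkp had no KO value as high as their lowest WT value, without passing the threshold. Pfkl, the liver-type subunit and the most abundant of the 3, measured 55.3, 93.3 and 77.0 FPKM in WT against 51.2, 35.9 and 35.7 FPKM in KO. The gap between WT replicate 1 and KO replicate 1 was small, and the log2 fold change was −0.85 (SE 0.22, limma, adjusted p 0.0843). Without WT replicate 1 it was −1.05, at an adjusted p of 0.0425 (limma), and without WT replicate 2 it was −0.68, at an adjusted p of 0.296. It did not pass when any other single library was left out. Pfkp, the platelet-type subunit, measured 12.2, 15.9 and 14.7 FPKM in WT against 9.76, 9.41 and 9.56 FPKM in KO. The KO values were almost equal, and the log2 fold change was −0.52 (SE 0.15, limma, adjusted p 0.103). Pfkm, the muscle-type subunit, measured 11.4, 13.9 and 13.1 FPKM in WT against 8.1, 12.5 and 12.9 FPKM in KO. The summed FPKM of the 3 subunits was 102 ± 22.3 in WT and 61.7 ± 6.36 in KO (SD, n = 3 each).

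The other enzymes of this stretch differed less. Aldoa, which encodes the main aldolase and was the most abundant member by mean, measured 1937, 2235 and 2709 FPKM in WT against 1886, 1558 and 2132 FPKM in KO. KO replicate 3 lay above WT replicate 1, and the log2 fold change of −0.3 did not pass (limma, adjusted p 0.402). Tpi1, triose phosphate isomerase, measured 221, 311 and 338 FPKM in WT against 223, 208 and 214 FPKM in KO. WT replicate 1 lay within the KO range (log2 fold change −0.41, limma, adjusted p 0.248). Gpi1, glucose phosphate isomerase, was at 295 ± 42.2 and 306 ± 30.5 FPKM (SD, n = 3 each), with a 95% interval of the log2 fold change from −0.29 to 0.4. Aldoc, the brain-type aldolase, measured 0.21, 0.41 and 0.34 FPKM in WT against 0.17, 0.38 and 0.2 FPKM in KO and was not tested; its lowest value rested on about 7 reads.

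In lower glycolysis 6 of 7 members had a log2 fold change below 0, and Pgk1, Pgam1 and Eno1 had all KO values below all WT values, none passing the threshold. Pgam1, the widely expressed phosphoglycerate mutase, measured 318, 392 and 407 FPKM in WT against 278, 227 and 222 FPKM in KO. The log2 fold change was −0.62 (SE 0.16, limma, adjusted p 0.082). Pgk1, phosphoglycerate kinase, measured 237, 284 and 277 FPKM in WT against 190, 162 and 205 FPKM in KO. Its groups were clearly apart, with a log2 fold change of −0.52 (SE 0.15, limma, adjusted p 0.106). Eno1, the main enolase, measured 601, 728 and 960 FPKM in WT against 591, 466 and 591 FPKM in KO. WT replicate 1 lay just above the highest KO library, with a log2 fold change of −0.45 (limma, adjusted p 0.248).

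Gapdh, often used as a reference gene, measured 1663, 2180 and 2892 FPKM in WT against 1611, 1583 and 1761 FPKM in KO. WT replicate 1 lay inside the KO range, so the groups overlapped (log2 fold change −0.41, SE 0.2, limma, adjusted p 0.313). Pkm, pyruvate kinase, was at 436 ± 77.1 FPKM in WT and 364 ± 53.1 FPKM in KO (SD, n = 3 each). Eno2, the neuronal enolase, measured 1.17, 1.0 and 1.09 FPKM in WT against 0.99, 1.47 and 0.87 FPKM in KO, with both extremes in KO. Several of these genes, among them Gapdh, Aldoa, Pgk1, Ldha, Tpi1, Eno1, Pgam1 and Pkm, have near-identical processed pseudogenes, and how reads shared with them were assigned is not given in the sources used here.

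**Figure D3:**
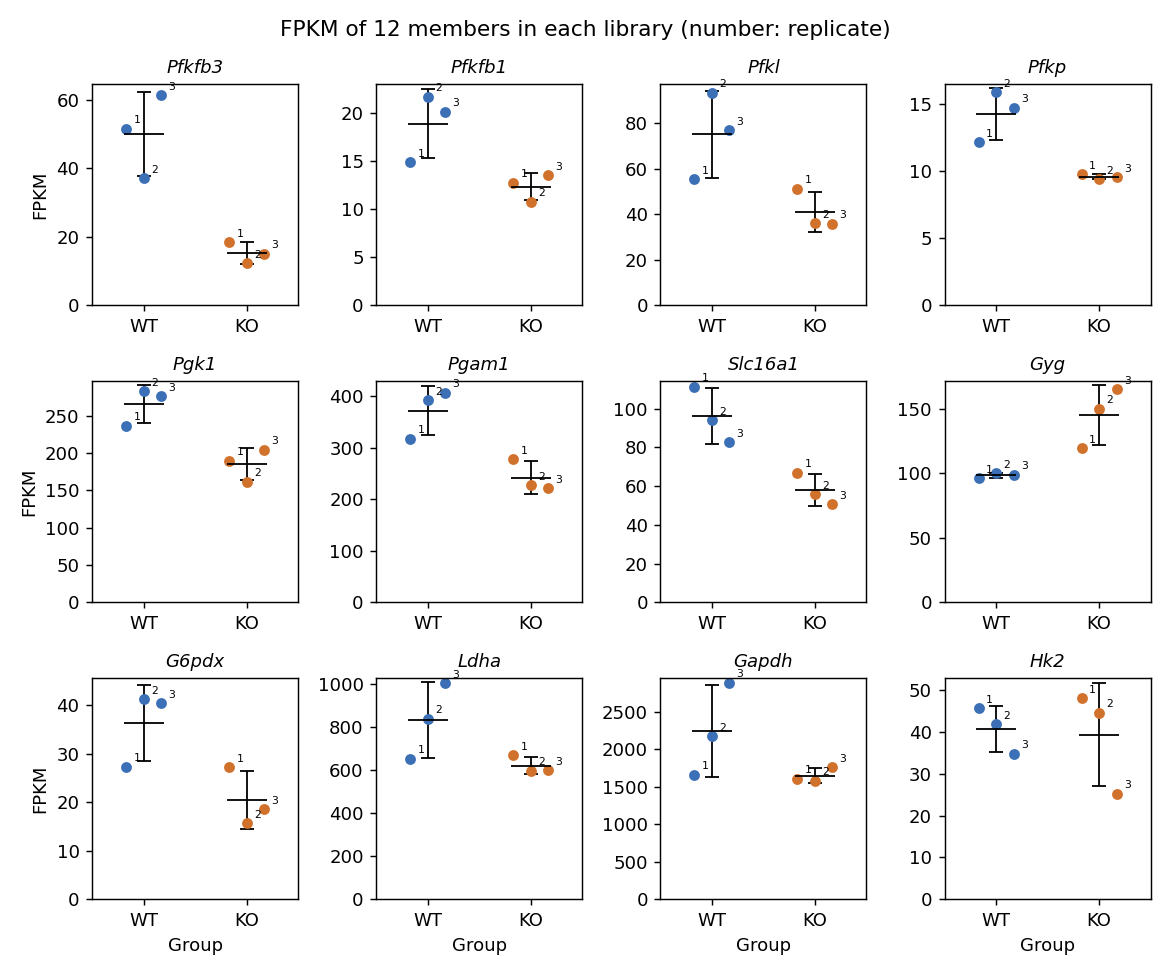
FPKM of 12 members on linear axes from 0, with 1 point per library numbered by replicate, and the group mean ± SD (n = 3) as a bar. KO and WT points are apart in Pfkfb3, Pfkfb1, Pfkl, Pfkp, Pgk1, Pgam1, Slc16a1 and Gyg, nearly touch in G6pdx, and overlap in Ldha, Gapdh and Hk2.

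For lactate, Slc16a1 had the second smallest p of all members. It encodes MCT1, which carries lactate, pyruvate and ketone bodies across the cell membrane. Slc16a1 measured 111, 94.2 and 82.7 FPKM in WT against 67.0, 55.9 and 50.6 FPKM in KO. The groups did not overlap, the KO mean was 60.2% of the WT mean, and the log2 fold change was −0.72 (SE 0.17, limma, adjusted p 0.0625). Unlike most glycolytic members, its highest library was WT replicate 1. Slc16a3, which encodes the lactate exporter MCT4 of glycolytic cells, was at 2.51 ± 0.999 and 2.37 ± 0.365 FPKM (SD, n = 3 each).

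Ldha, the lactate dehydrogenase subunit that favours lactate formation, measured 654, 839 and 1006 FPKM in WT against 669, 597 and 599 FPKM in KO. WT replicate 1 was below KO replicate 1, so the groups overlapped (log2 fold change −0.4, SE 0.18, limma, adjusted p 0.256). Ldhb, the heart-type subunit, measured 332, 406 and 494 FPKM in WT against 343, 282 and 376 FPKM in KO, also with overlap (log2 fold change −0.29, limma, adjusted p 0.426). Ldha made up 66.9% ± 0.528 of the lactate dehydrogenase FPKM in WT and 65.2% ± 3.35 in KO (SD, n = 3 each), with the lowest share, 61.4%, in KO replicate 3.

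The muscle-type isoforms followed a single library. Pgam2, the phosphoglycerate mutase of muscle, measured 14.0, 23.7 and 21.6 FPKM in WT against 4.78, 19.6 and 18.4 FPKM in KO. KO replicate 1 was far below the other 5 libraries, which overlapped. The log2 fold change was −0.62 (SE 0.44, limma, adjusted p 0.483) with all libraries and −0.02 (limma, adjusted p 0.974) without KO replicate 1. Pfkm was lowest in the same library, at 8.1 FPKM against 11.4 to 13.9 FPKM in the other 5. Outside the members, the muscle enolase Eno3 was at 9.22 FPKM in KO replicate 1 and 22.1 to 34.98 FPKM elsewhere. The muscle glycogen phosphorylase Pygm was at 3.52 FPKM in KO replicate 1 and 9.72 to 13.7 FPKM elsewhere. All 4 were lowest where the summed muscle markers were lowest, 433 FPKM against 1657 to 2426 FPKM. Of the 22 markers, 21 averaged at least 1 FPKM and 0 were at 0 in every library. The members' median log2 fold change was −0.282 with all libraries and −0.316 without KO replicate 1. The part of muscle tissue in the members' differences was not tested.

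**Figure D4:**
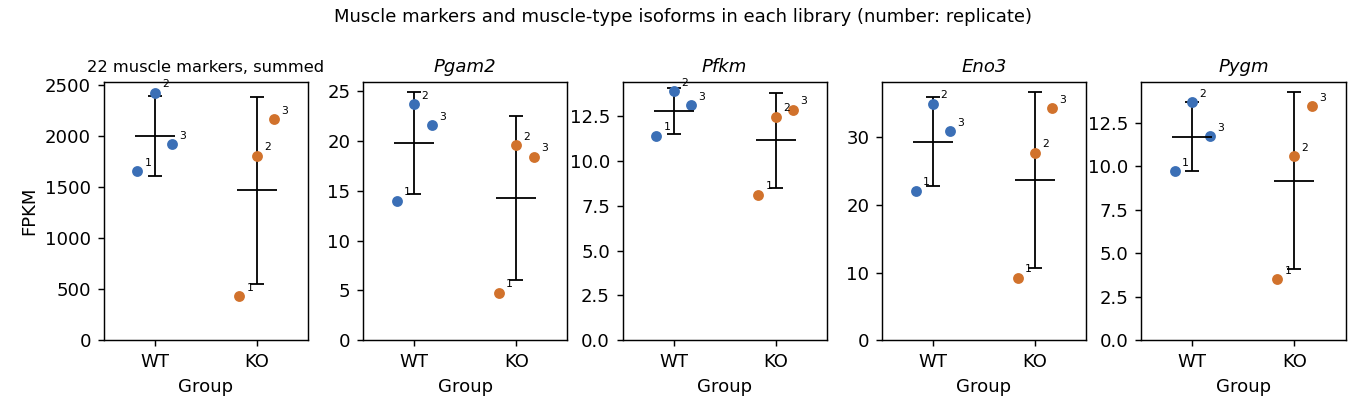
The first panel gives the summed FPKM of 22 skeletal muscle markers and the others the FPKM of Pgam2, Pfkm, Eno3 and Pygm, with 1 point per library numbered by replicate and the mean ± SD (n = 3) as a bar. KO replicate 1 is the lowest point in every panel.

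The 7 glycogen genes had a median log2 fold change of −0.05, with 4 below 0 and 3 above. Gyg, the gene of glycogenin, the self-glucosylating protein on which a glycogen particle starts, was the only member whose KO values all exceeded its WT values. It measured 96.2, 99.97 and 98.9 FPKM in WT against 119, 149.9 and 165 FPKM in KO. The WT values were nearly equal, the KO mean was 147% of the WT mean, and the log2 fold change was 0.54 (SE 0.15, limma, adjusted p 0.104). Gys1, the glycogen synthase of muscle and most other tissues, was at 74.0 ± 7.38 FPKM in WT and 60.7 ± 7.34 FPKM in KO (SD, n = 3 each; limma, adjusted p 0.342). Gbe1, the branching enzyme, was at 70.3 ± 6.49 and 68.2 ± 10.8 FPKM (SD, n = 3 each). Ugp2, which makes UDP-glucose, was at 63.1 ± 5.95 and 60.8 ± 3.86 FPKM (SD, n = 3 each), with a 95% interval of the log2 fold change from −0.36 to 0.26.

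Phosphoglucomutase, listed as Pgm2 (Entrez gene 72157; RefSeq calls the same gene Pgm1), was at 82.6 ± 15.4 FPKM in WT and 66.2 ± 6.55 FPKM in KO (SD, n = 3 each). The phosphorylases that break glycogen down differed little. Pygl, the liver form, measured 11.1, 17.1 and 16.4 FPKM in WT against 14.9, 13.2 and 16.9 FPKM in KO. Pygb, the brain form, measured 13.7, 20.5 and 19.3 FPKM in WT against 19.7, 19.1 and 17.8 FPKM in KO. WT replicate 1 was the lowest library for both, and the 95% interval of the log2 fold change was −0.4 to 0.46 for Pygl and −0.3 to 0.48 for Pygb.

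Of the 4 pentose phosphate genes, 3 had a log2 fold change below 0, and none passed the threshold. G6pdx, glucose phosphate dehydrogenase, the entry enzyme of the path, measured 27.3, 41.3 and 40.5 FPKM in WT against 27.3, 15.7 and 18.6 FPKM in KO. WT replicate 1 and KO replicate 1 were level to 3 digits, and the log2 fold change was −0.81 (SE 0.23, limma, adjusted p 0.108). Pgd, phosphogluconate dehydrogenase, measured 79.1, 110 and 129 FPKM in WT against 94.5, 65.5 and 64.7 FPKM in KO. KO replicate 1 lay between the WT libraries (log2 fold change −0.49, limma, adjusted p 0.263). Tkt, transketolase, was at 257 ± 64.4 and 259 ± 46.3 FPKM (SD, n = 3 each). Taldo1, transaldolase, measured 324, 434 and 522 FPKM in WT against 404, 337 and 369 FPKM in KO, with overlap (log2 fold change −0.18, limma, adjusted p 0.643). In both oxidative enzymes KO replicate 1 was higher than the other KO libraries. Whether the oxidative genes differed from the transferases was not tested.

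There are 3 X-linked members, Pfkfb1, Pgk1 and G6pdx, and all of them were among the 9 members with no overlap and lower KO values. Those 9 were 25.7% of the members tested, against 11.4% of all genes, and the share among all X-linked genes was not counted. The lowest WT value of G6pdx was 27.3 FPKM and its highest KO value 27.26 FPKM. The margin of Pfkfb1 was narrow too. The KO libraries carried Y-linked transcripts and the WT libraries Xist, as given above, so for the X-linked members too sex and genotype cannot be told apart.

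**Figure D5:**
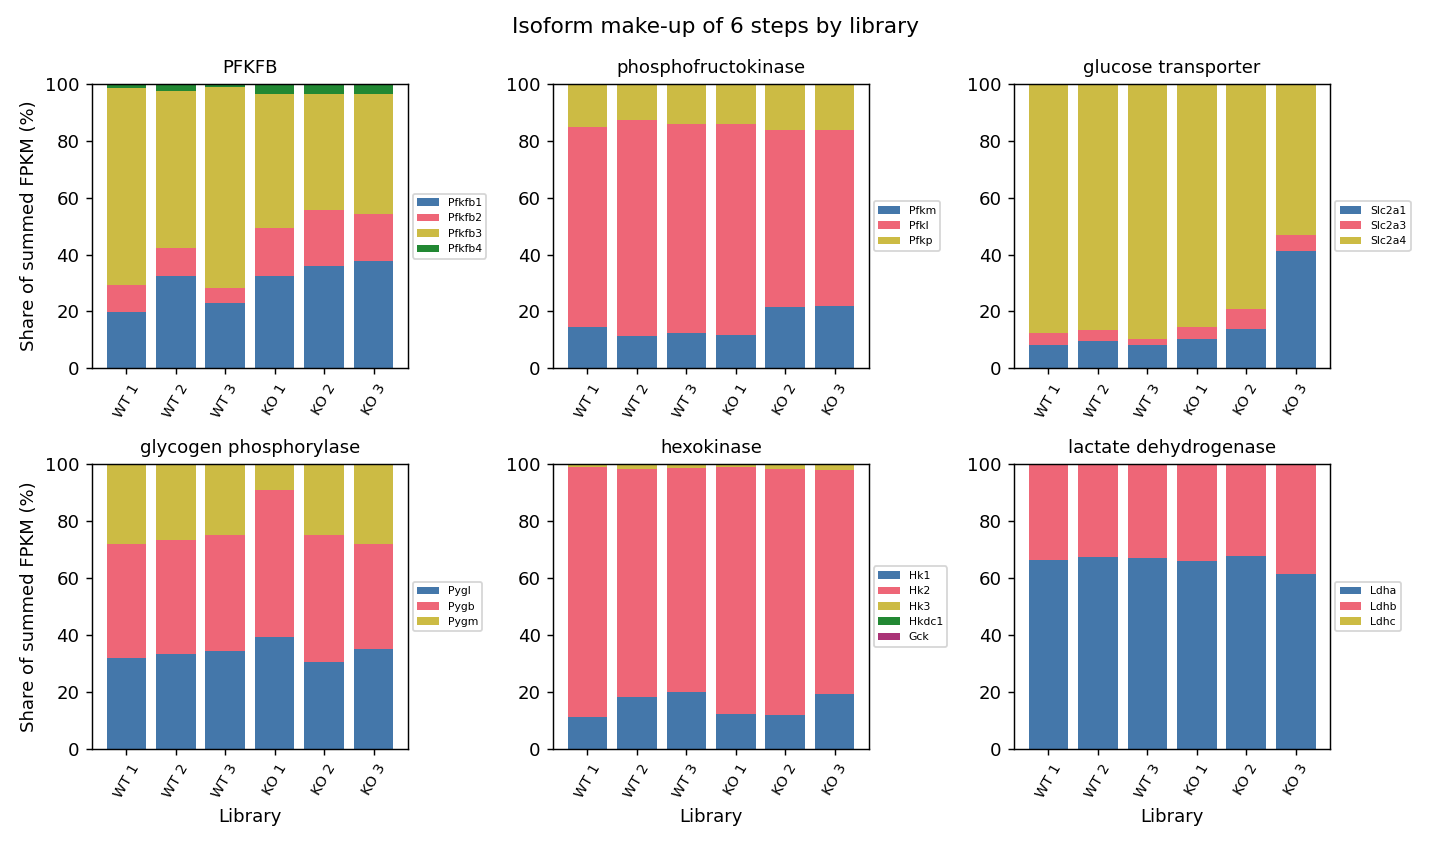
Stacked bars give each isoform's share, in percent, of the summed FPKM of its step in each library, for 6 steps. The Pfkfb3 shares of the KO libraries are all below those of the WT libraries, the Slc2a4 share is smallest in KO replicate 3, the Pygm share is smallest in KO replicate 1, and the Ldha and Ldhb shares are nearly level.

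Outside the PFKFB step, the glucose transporters were the other step in which an isoform share did not overlap between groups. Slc2a4, which encodes the insulin-regulated transporter GLUT4, is not a member; it measured 61.6, 59.6 and 80.5 FPKM in WT against 52.6, 28.7 and 15.6 FPKM in KO. Every KO value was below every WT value, with a wide spread among the KO libraries (log2 fold change −1.18, SE 0.36, limma, adjusted p 0.123). Of the summed FPKM of Slc2a1, Slc2a3 and Slc2a4, Slc2a4 held 87.5%, 86.5% and 89.6% in WT and 85.2%, 79.0% and 53.2% in KO. The difference of the means, −15.4 percentage points, was −5.78 without KO replicate 3. Pfkl held 73.1% ± 2.85 of phosphofructokinase FPKM in WT and 65.9% ± 7.12 in KO, Eno1 96.1% ± 0.754 and 95.6% ± 2.35 of enolase FPKM, and Slc16a1 97.4% ± 1.11 and 96.0% ± 1.1 of the 2 monocarboxylate transporters (SD, n = 3 each), all with overlap between the groups.

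A further 61 genes of the same pathways were taken as a second list, covering the isoforms, gluconeogenic enzymes, glycogen regulators and glycerol phosphate dehydrogenases that are not members. Of these 48 were tested. The count past the threshold was 1 (2.08%, against 2.21% of all genes), lower in KO. An unadjusted p under 0.05 was found for 11 (22.9%, against 19.2% of all genes), 9 lower and 2 higher; the median log2 fold change was −0.08. The gene that passed was Gys2, the glycogen synthase of liver. The WT libraries held 1.19, 1.76 and 1.48 FPKM of it, and it fell to 0.3, 0.15 and 0.31 FPKM in KO, a log2 fold change of −0.98 (SE 0.15, limma, adjusted p 0.0236), at levels far below those of Gys1. It lost the threshold when any 1 of WT replicates 2 and 3 or KO replicates 2 and 3 was left out, with adjusted p from 0.0534 to 0.0998 (limma). Gys2 averaged 0.253 FPKM in KO, so it reached the mean of 0.5 FPKM required for testing only through its WT values.

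Next by p-value were Ppp1r3d, Rpia and Ppp1r3b, none of which passed. Ppp1r3d, which encodes a subunit that targets protein phosphatase 1 to glycogen, measured 40.6, 26.8 and 29.3 FPKM in WT against 17.8, 15.8 and 7.6 FPKM in KO (log2 fold change −1.23, limma, adjusted p 0.0658). Ppp1r3b, another such subunit, measured 13.9, 17.6 and 15.7 FPKM in WT against 10.7, 5.71 and 3.02 FPKM in KO (log2 fold change −1.29, limma, adjusted p 0.0811). Rpia, the ribose phosphate isomerase of the pentose phosphate path, measured 17.2, 17.3 and 12.8 FPKM in WT against 9.95, 9.75 and 5.97 FPKM in KO (log2 fold change −0.83, limma, adjusted p 0.0806). In all 3 the groups were apart and KO replicate 3 was the lowest library. In Ppp1r3b, leaving out 1 library gave log2 fold changes from −1.68 without KO replicate 1 (limma, adjusted p 0.0282) to −0.91 without KO replicate 3 (adjusted p 0.151), with adjusted p of up to 0.268.

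HIF genes and well known HIF targets outside glycolysis formed another list. Of 30 listed, 26 were tested, with a median log2 fold change of 0.07. At an unadjusted p under 0.05 there were 12 (46.2%, against 19.2% of all genes). Of these, 8 were higher in KO (30.8%, against 10.6%) and 4 lower (15.4%, against 8.6%). The threshold was passed by 1 (3.85%, against 2.21% of all genes). Kdm3a, a histone demethylase gene induced in hypoxia, rose from a range of 14.4 to 18.8 FPKM in WT to one of 28.8 to 42.6 FPKM in KO, with a log2 fold change of 0.94 (SE 0.19, limma, adjusted p 0.0423). It passed in 7 of 18 alternative settings, with adjusted p from 0.00743 to 0.139 over all of them, and leaving out any 1 library ended the call (limma, adjusted p 0.058 to 0.139). Bnip3 (log2 fold change 1.12, limma, adjusted p 0.0643), Bnip3l (0.63, 0.0794) and Hilpda (0.55, 0.0837) had KO values that all exceeded the WT values, without passing. Bnip3 and Bnip3l encode mitophagy receptors and Hilpda a lipid droplet protein. Among members that are textbook HIF targets, Pfkfb3 is given above, Pgk1, Ldha, Eno1 and Aldoa had log2 fold changes of −0.52, −0.4, −0.45 and −0.3, and Slc2a1, Hk2, Pfkfb4 and Slc16a3 of 0.13, −0.09, −0.03 and −0.03. Pdk1, which holds back pyruvate oxidation, was at 27.3 ± 3.37 FPKM in WT and 28.8 ± 1.23 FPKM in KO (SD, n = 3 each).

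Of 15 regulators of glucose use, all tested, 0 passed the threshold in limma (2.21% of all genes did) and 7 (46.7%) had an unadjusted p under 0.05, against 19.2% of all genes, 4 lower and 3 higher in KO. Mlx, the partner of the glucose-sensing factor ChREBP, measured 21.2, 23.3 and 25.3 FPKM in WT against 14.5, 14.5 and 10.01 FPKM in KO (log2 fold change −0.81, limma, adjusted p 0.0533). It passed in 6 of 18 alternative settings. Esrra, a nuclear receptor gene of oxidative metabolism, was at 57.1 ± 9.23 and 34.8 ± 5.6 FPKM (SD, n = 3 each; log2 fold change −0.7, limma, adjusted p 0.0813). Mlxip, which encodes MondoA, was higher in every KO library, at 17.9 ± 2.19 FPKM against 12.3 ± 1.04 FPKM (SD, n = 3 each; log2 fold change 0.5, limma, adjusted p 0.118).

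Brown adipocytes and other cell types the depot could hold were followed by marker lists. The brown adipocyte list also holds genes that are not particular to brown fat, among them Adipoq, Fabp4, Plin1 and Lep. Of the 14 genes on that list, 2 passed the threshold (14.3%, against 2.21% of all genes), both lower in KO. The log2 fold change was below 0 in 9 and above 0 in 5, with a median of −0.36. Those above 0, none of them called, were Ppargc1a (0.52), Adipoq (0.24), Pparg (0.2), Cidea (0.13) and Cox8b (0.06). All KO values lay below all WT values in 5 genes (35.7%, against 11.4% of all genes). Plin1, a lipid droplet coat gene, fell from 174, 309 and 254 FPKM in WT to 106, 76.6 and 96.9 FPKM in KO (log2 fold change −1.36, limma, adjusted p 0.0267). Lep, the gene of leptin, fell from 0.91, 2.22 and 0.98 FPKM to 0.11, 0.13 and 0.06 FPKM (log2 fold change −1.07, limma, adjusted p 0.0423). With a KO mean of 0.1 FPKM, Lep reached the mean of 0.5 FPKM required for testing only through its WT values. Leaving out any 1 of WT replicates 2 and 3 and KO replicates 2 and 3 ended the call of Plin1 (limma, adjusted p 0.061 to 0.108), and leaving out any 1 library other than WT replicate 1 ended that of Lep (limma, adjusted p 0.0949 to 0.118). Prdm16, a transcription factor gene of brown fat identity, Ebf2, another, and Ucp1 were the others without overlap, at 46.0%, 44.4% and 48.9% of their WT means, and none of these 3 passed (limma, adjusted p 0.0519, 0.0917 and 0.0804). The sum of the list, in which Fabp4 weighs most, was 22550 to 28864 FPKM in WT and 22270 to 24324 FPKM in KO.

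All 11 macrophage markers had a log2 fold change above 0, with a median of 0.41. None passed, 5 had all KO values above all WT values (45.5%, against 13.6% of all genes), and the unadjusted p was under 0.05 for 5 (45.5%, against 19.2%). The smallest p-values were those of Cd163, C1qb and C1qa, with log2 fold changes of 0.62, 0.59 and 0.58 (limma, adjusted p 0.0831, 0.106 and 0.148). Cd163 encodes a scavenger receptor and the others parts of complement. The list summed to 142 to 210 FPKM in WT and 199 to 275 FPKM in KO. All 6 smooth muscle and pericyte markers had a log2 fold change below 0, and none passed. In 2 (33.3%, against 11.4% of all genes) all KO values lay below all WT values. They were Acta2 and Rgs5 (log2 fold changes −0.6 and −0.42, limma, adjusted p 0.132 and 0.214). The list summed to 108 to 137 FPKM in WT and 92.0 to 105 FPKM in KO.

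The macrophage sums overlapped between the groups, and so did those of the remaining lists. The 8 endothelial markers summed to 475 to 572 FPKM in WT and 483 to 545 FPKM in KO, and the 7 fibroblast markers to 1314 to 1786 and 1413 to 2462 FPKM. All 7 fibroblast markers had a log2 fold change above 0, with a median of 0.26. None of them passed, and in none were the groups without overlap. The 8 neutrophil markers summed to 134 to 210 and 153 to 369 FPKM, the 6 Schwann cell and nerve markers to 21.9 to 28.8 and 21.8 to 24.9 FPKM, and the 5 epidermal markers to 1.97 to 2.15 and 1.58 to 2.36 FPKM. The part of any of these cell types, brown adipocytes included, in the members' differences was not tested.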

How the data were processed

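RNA from whole interscapular brown fat of newborn mice was sequenced in 6 libraries, 3 WT and 3 KO, grouped by their titles. The authors deposited FPKM values, per the file headers, rounded to 2 decimals. HISAT2 2.0.4, Bowtie2 2.2.5, DESeq2 and the build mm10 are named in the submitters' processing notes without their roles; the counting tool, annotation, strand handling and filters are not given in the sources used here. FPKM are not counts, so no count model was fitted.

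Values were taken as log2(FPKM + 1), and KO was compared with WT for the 13331 genes averaging 0.5 FPKM or more across libraries, with limma 3.58.1 in R 4.3.3 (intensity trend, no covariates, two-sided). Benjamini-Hochberg adjustment ran over all genes tested, and the threshold was 0.05. Fold changes on this scale understate those of low genes. Data were simulated for 13331 genes drawn independently, 200 of them changed by 1.5 on the log2 scale. The fit recovered 177 (88.5%), all with the right sign, with 5 false calls, and made 0 calls without change. That change was larger than that of any member but Pfkfb3, so the recovery does not hold for smaller changes. Genes that vary together were not simulated.

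The members and lists were chosen with earlier results of these data known. Every member is named. From each pathway list, and from the brown adipocyte and macrophage lists, the genes past the threshold and up to 3 more with the smallest p are named, and 2 from the smooth muscle list. The other marker lists, with 0 past the threshold, are given as sums, and the fibroblast list with its direction as well. Slc2a4, Eno3 and Pygm are named as isoforms of compared steps, and Pdk1 was chosen after its values were seen. The brown adipocyte genes with a log2 fold change above 0 are named as well. Entrez identifiers of all 36 members were found in the RefSeq gene table of GRCm38.p6, with the same symbol for 35. Isoform shares and list sums are descriptions without a test. Depth was estimated from the steps between low FPKM values of single-transcript genes of 500 to 1300 nt with a length offset of 50 nt, where 75.9% to 81.2% of the 500 to 548 values used in each library were within 0.2 of whole reads. Alternatives were pseudocounts of 0.1 and 0.01, no filter and a filter at 5 FPKM, quantile normalization, a common sum, median-of-ratios scaling, the trimmed mean of M-values on FPKM, eBayes without trend or robust, array weights, a replicate block, and leaving out each library. Figures were drawn with matplotlib 3.10.9.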

Additional observations from a re-analysis of the deposited data

How the results depend on the processing

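Of the 35 tested members, 23 kept their direction in all 18 alternatives, among them every member with an unadjusted p under 0.05, and 15 passed the threshold in at least 1. The members' median log2 fold change, −0.282, ran from −0.417 without WT replicate 1 to −0.2 without WT replicate 3. The SD between replicates of the members' median deviation from the group mean was 0.16. The number of members past the threshold was 1; it was 0 without the filter on low values, 2 (all lower) with the filter at 5 FPKM, which tests fewer genes, and 15 (14 lower, 1 higher) with array weights, which were 6.7 for WT replicate 2 and 0.368 to 1.67 for the rest. Leaving out 1 library gave 0 to 2, all lower. Members at an unadjusted p under 0.05 were 21 with array weights and 8 to 19 without 1 library. Over all genes 295 passed; this was 35 without the filter, 191 with a common sum, 3181 with array weights and 31 to 370 without 1 library. The second pathway list, with 1, had 9 with array weights and 0 to 3 without 1 library. The HIF list, with 1 (Kdm3a), had 0 without the filter, 0 with a common sum, 0 with median-of-ratios scaling, 0 with the trimmed mean of M-values, 2 with the filter at 5 FPKM, 13 with array weights and 0 to 0 without 1 library. The regulators, with 0, had 1 each with the filter at 5 FPKM, quantile normalization, median-of-ratios scaling, the trimmed mean of M-values and robust eBayes, and 5 with array weights. Why the counts moved elsewhere was not tested.

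The labels number both groups 1 to 3. After subtracting group means, WT and KO libraries with the same number had correlations of 0.0681, 0.0433 and 0.0433 over genes. Libraries with unlike numbers had correlations from −0.0781 to 0.0292, all below those. Subtracting the mean of 3 libraries ties these values to each other. Whether the numbers mark pairs was not tested, and the main fit used no block. Under the replicate block, 167 genes, 1 member, Pfkfb3, and 0 HIF genes passed; Plin1 and Lep did not (adjusted p 0.0523 each).

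Members near 0 changed sign, none of them called: with quantile normalization Pfkfb2 was −0.03, Eno2 −0.03, Gbe1 0.0029 and Ugp2 0.01 on the log2 scale. With array weights Pfkfb2 was −0.06, Gbe1 0.14, Pygl −0.16, Pygb −0.06 and Tkt −0.03. With median-of-ratios scaling Eno2 was −0.01 and Tkt −0.0015, with the trimmed mean of M-values Eno2 was −0.01, and at pseudocounts of 0.1 and 0.01 Eno2 was −0.00071 and −0.0032. Leaving out 1 library, Slc2a1 ran from −0.19 to 0.37, Hk2 from −0.26 to 0.19, Gpi1 from −0.02 to 0.17, Pfkfb2 from −0.14 to 0.12, Pfkfb4 from −0.1 to 0.08, Eno2 from −0.11 to 0.09, Slc16a3 from −0.21 to 0.19, Gbe1 from −0.16 to 0.07, Pygl from −0.16 to 0.14, Pygb from −0.08 to 0.2, Ugp2 from −0.13 to 0.01, Tkt from −0.17 to 0.2, and outside the members Pdk1 from −0.02 to 0.16, Eno3 from −0.8 to 0.09 and Pygm from −0.8 to 0.04. The KO minus WT difference of the Slc2a4 share ran from −21.8 to −5.78 points when 1 library was left out. That of the Pygb share ran from 0.628 to 7.95. The differences for Hk2 (−0.0546 to 4.51), Pgam2 (−0.31 to 2.81), Eno1 (−1.87 to 0.233) and Ldha (−3.14 to 0.109) changed sign. At the estimated depth only Aldoc rested on very few reads.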
